A study of Mus musculus with 12 samples.

Results

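These data compare fat grafts that received added adipose stromal cells together with inhibition of the Notch ligand Dll4 with grafts that received the stromal cells alone. The members are 8 of the 12 libraries of the series, 4 in each of the 2 groups, chosen by their sample titles, with every measured gene included. All grafts were adipose tissue of wild type C57BL/6 mice aged 16 weeks, and were collected 8 weeks after grafting. The group named CAL in the titles (1 to 4) had ASC added to the graft; ASC is the common short form of adipose-derived stromal cells, and CAL that of cell-assisted lipotransfer. The group named CAL + DLL4 inhibition (1 to 4, written CAL_Dll4i here) had the same addition and inhibition of Dll4. The remaining group of 4 control grafts had neither. It gives reference levels, and it also enters the scaling, the filter and the shared estimate of spread in the fit of all 12 libraries. The agent, dose and timing of the inhibition, and whether each library came from its own animal, were not stated in the labels. All p-values thus reflect only how much these samples vary, which may be technical.

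Notch receptors are cut and release a fragment into the nucleus when a neighbouring cell presents a ligand of the Delta-like or Jagged family. The fragment binds the DNA-binding protein RBPJ and switches on target genes such as those of the Hes and Hey families. Dll4 is made mainly by endothelial cells, where signalling from it restrains the formation of new sprouts and takes part in the choice of arterial fate. In adipose tissue, capillaries also deliver fatty acids to fat cells, and Notch signalling has been tied to fat cell identity and to endothelial lipid transport.

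Total counts ran from 55883051 to 70804141 per library over the series, and 18551 of 19547 genes were tested. No gene passed edgeR's quasi-likelihood test at a Benjamini-Hochberg adjusted p under 0.05 (0% called). The smallest adjusted p was 0.659. voom with sample weights called 0 genes and DESeq2 called 1 (0.00539%). Before adjustment, 829 genes (4.47%) had p under 0.05 and were higher in CAL_Dll4i, and 548 (2.95%) were lower. All 4 libraries of one group lay beyond all 4 of the other for 293 genes that were higher (1.58%) and 326 that were lower (1.76%). Over all tested genes 9510 estimates were higher and 9041 lower, and the median was 0.00. On simulated counts at this sample size edgeR recovered 35.8% of genes changed 1.5-fold and 67.2% of genes changed 2-fold. The simulation drew each gene independently, without the differences in neighbouring tissue between these libraries that are described below. Its rates therefore cannot say how many changes of that size the present comparison would miss. Log2 fold changes below are CAL_Dll4i minus CAL with their standard error (SE), and single values are CPM, counts scaled by TMM to a common library size.

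The libraries also differed in neighbouring tissue. Skeletal muscle genes (7 tested of 15 listed) summed to 191 and 428 CPM in CAL 1 and CAL 2 and 705 CPM in CAL_Dll4i 3, and to 6.10 to 20.2 CPM in the other 5 libraries. Keratinocyte genes (8 tested of 15 listed) summed to 10.6 to 90.6 CPM in CAL, highest in CAL 3, and to 552, 184, 13.0 and 241 CPM in CAL_Dll4i 1 to 4. The other listed genes of both sets were absent from the deposited counts, so these sums leave them out. The first principal component (33.3% of variance) set CAL 3 and CAL_Dll4i 1, 2 and 4 apart from CAL 1, 2, 4 and CAL_Dll4i 3. CAL_Dll4i 3 correlated better with CAL (mean r = 0.988 across genes, which are not independent) than with its own group (0.983). By smaller margins, CAL 3 correlated better with CAL_Dll4i (0.9892) than with CAL (0.9879), as did CAL 2 (0.9889 against 0.9886). Results are therefore also given without the 3 libraries with muscle RNA, which leaves CAL 3 and 4 against CAL_Dll4i 1, 2 and 4. The log2 fold changes of all genes also had a median of 0.00 there.

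**Figure D1:**
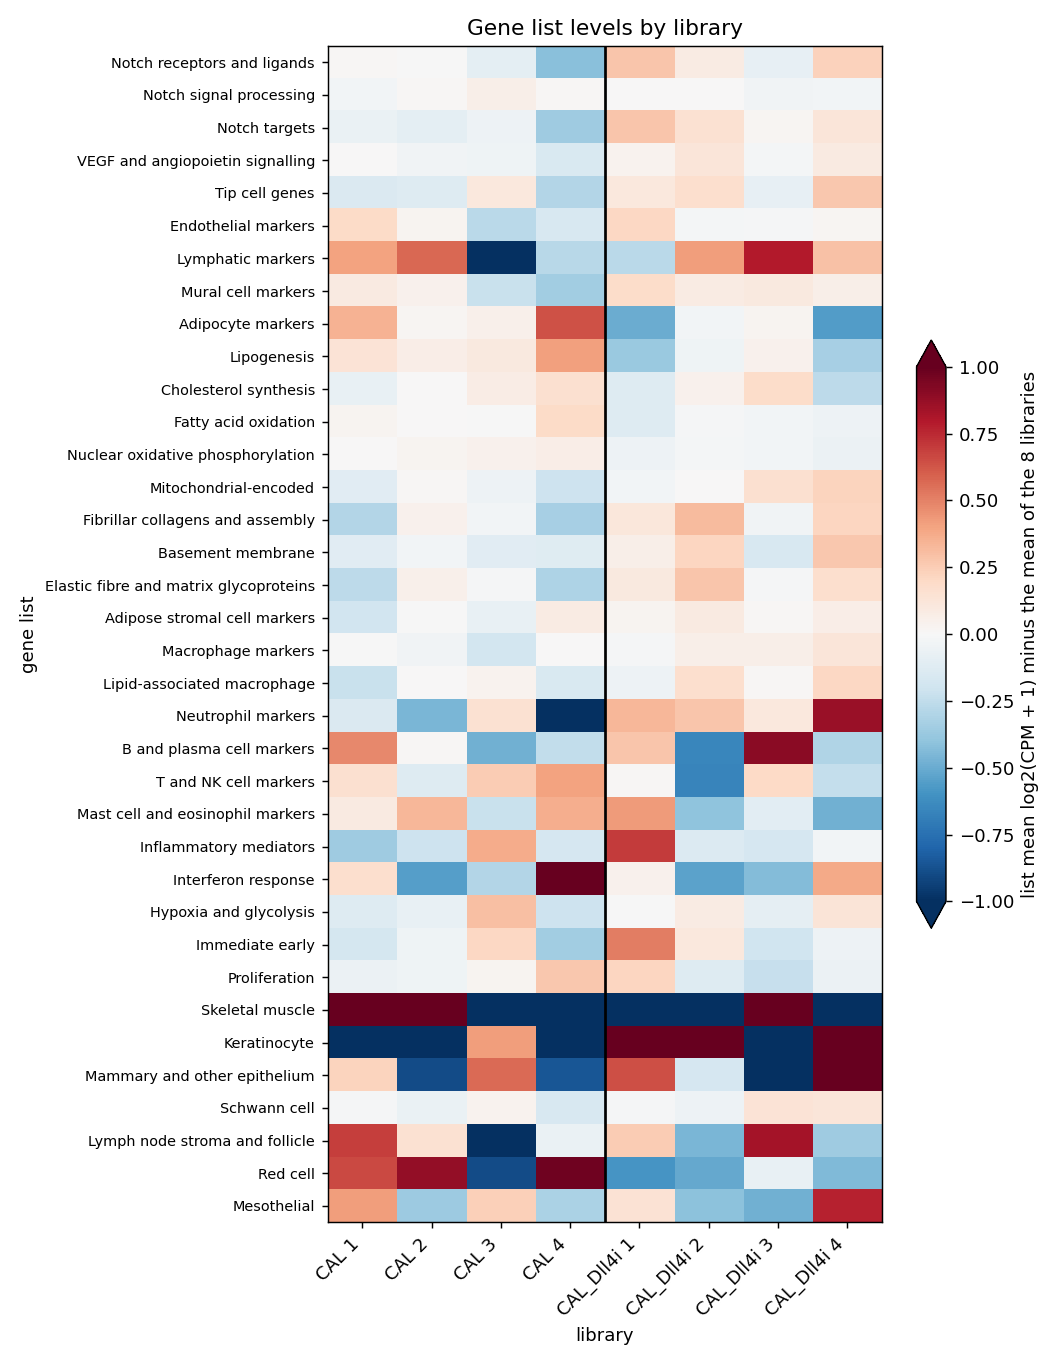
Mean log2(CPM + 1) of each gene list (rows) in each of the 8 libraries (columns), shown as the difference from the mean of the 8 libraries on the colour scale; the black line separates CAL from CAL_Dll4i. Skeletal muscle stands out in CAL 1, CAL 2 and CAL_Dll4i 3, keratinocyte genes in CAL_Dll4i 1, 2 and 4, interferon response genes in CAL 4 and low lymphatic markers in CAL 3.

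Dll4 itself, the target of the treatment, was 4.03, 4.22, 3.60 and 3.01 CPM in CAL 1 to 4 and 4.95, 3.98, 4.35 and 4.39 CPM in CAL_Dll4i 1 to 4. In 3 of the 4 inhibited grafts the level exceeded every CAL graft, but CAL_Dll4i 2 lay within the CAL range. The means were 3.72 ± 0.536 and 4.42 ± 0.399 CPM, a log2 fold change of 0.25 ± 0.14 with adjusted p = 0.713 by edgeR, and the two-sided exact permutation test gave p = 0.0857 where the smallest possible was 0.0286. Control grafts had a mean of 5.78 ± 0.836 CPM. Since inhibition of a ligand need not alter its RNA, this level does not test the treatment, and a lncRNA gene (Gm14207) overlaps Dll4. Dll4 lies on chromosome 2 at 119325784 to 119335666 of GRCm38.p6.

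Notch ligands had higher estimates with the inhibition. Of 8 tested receptor and ligand genes 7 were higher, 2 of them at an unadjusted p under 0.05 against 4.47% of all genes, and the list median was 0.29. Jag1, the Jagged ligand that can compete with Dll4 for Notch in endothelium, stood at 82.2, 110.1, 92.1 and 66.3 CPM in CAL 1 to 4 and 139, 127, 83.3 and 133 CPM in CAL_Dll4i 1 to 4. CAL_Dll4i 1, 2 and 4 lay above all CAL grafts, and CAL_Dll4i 3 lay among them. Its log2 fold change was 0.46 ± 0.20, with adjusted p = 0.669. Jag2, the other Jagged ligand, was 2.36, 2.17, 2.36 and 1.32 CPM in CAL 1 to 4 and 3.37, 2.57, 2.56 and 4.02 CPM in CAL_Dll4i 1 to 4. Every inhibited graft exceeded every CAL graft, with CAL 4 the lowest of all, and the log2 fold change was 0.61 ± 0.25 with adjusted p = 0.659. Dll1, a Delta-like ligand, stood at 2.34 ± 0.607 and 3.23 ± 0.584 CPM in the respective groups, 0.47 ± 0.25 on the log2 scale with adjusted p = 0.708.

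Among the receptors, Notch1, a main receptor of endothelium, was 116, 120.0, 130.1 and 106 CPM in CAL 1 to 4 and 136, 109, 117 and 125 CPM in CAL_Dll4i 1 to 4. The groups overlapped over most of their range. Its log2 fold change was 0.05 ± 0.08 with adjusted p = 0.92; without CAL 4 it was -0.00. Notch4, largely confined to endothelium, stood at 9.41 ± 1.43 and 11.2 ± 1.84 CPM (0.25 ± 0.14, adjusted p = 0.718). Notch3, the receptor of mural cells, ran from 41.6 to 86.0 CPM in CAL and from 68.8 to 99.9 in CAL_Dll4i, with CAL 4 lowest. Its estimate was 0.33 ± 0.20 with adjusted p = 0.744. Per transcript length, Notch1 averaged 29.8 TPM in CAL and 29.5 in CAL_Dll4i, Notch3 19.8 TPM in CAL and 23.9 in CAL_Dll4i, Jag1 34.4 TPM in CAL and 42.1 in CAL_Dll4i and Dll4 2.599 TPM in CAL and 3.00 in CAL_Dll4i. Dll4 thus had the lowest measured level of these genes. The libraries were made by capture of exonic sequence, and whether capture differed between genes was not tested. In bulk RNA, fewer cells of a type and less RNA per cell cannot be told apart.

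Without the 3 libraries with muscle RNA, the receptors and ligands stood farther apart, with a list median of 0.60. The median was 0.15 with the muscle and keratinocyte list scores as covariates and 0.16 without CAL 4. In the fit without the 3 libraries with muscle RNA, 6 of the 8 genes had an unadjusted p under 0.05. At that level 5.91% of all genes were higher and 4.59% lower in the same fit. The log2 fold changes became 0.80 for Notch3, 0.75 for Jag1, 0.89 for Dll1, 0.46 for Notch4 and 0.42 for Dll4, while Notch1 stayed at 0.06. No gene passed edgeR's adjusted threshold in that fit either. It compares 2 CAL grafts with 3, and CAL 4 had the lowest value of all 8 libraries for Jag1, Notch3 and Dll4.

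Notch target genes also had higher estimates. Of 13 tested targets 12 were higher (median 0.37), 6 at an unadjusted p under 0.05 against 4.47% of all genes, and in 3 the groups did not overlap (Hes1, Efnb2 and Bmx), against 1.58% of all genes. The mean log2(CPM + 1) over the list was 2.70 ± 0.14 in CAL, 2.98 ± 0.11 in CAL_Dll4i and 2.96 ± 0.13 in control grafts (SD over 4 libraries). CAL 4 had the lowest level (2.49), and without it the median was 0.22. To show what lies before the starts of the targets, 250 bases upstream are printed for 4 of them (RefSeq, GRCm38.p6, 5′ to 3′ in the direction of transcription). Promoters were given for 9 of the 13 genes, and Hes1 is not among them. Capitals mark the letters TGGGAA, the core of the RBPJ motif, or their reverse complement.
Nrarp (chr2:25180508-25180757, + strand): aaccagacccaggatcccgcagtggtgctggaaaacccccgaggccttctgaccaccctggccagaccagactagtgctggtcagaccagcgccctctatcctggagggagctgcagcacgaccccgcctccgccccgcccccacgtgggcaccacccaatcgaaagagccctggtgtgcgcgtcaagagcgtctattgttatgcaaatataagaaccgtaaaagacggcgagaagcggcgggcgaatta
Efnb2 (chr8:8661243-8661492, - strand): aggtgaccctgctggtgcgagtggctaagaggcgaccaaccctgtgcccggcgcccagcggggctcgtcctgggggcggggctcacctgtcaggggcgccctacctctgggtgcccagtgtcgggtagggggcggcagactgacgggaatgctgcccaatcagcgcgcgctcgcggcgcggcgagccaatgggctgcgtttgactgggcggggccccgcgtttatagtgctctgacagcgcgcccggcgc
Hey2 (chr10:30842784-30843033, - strand): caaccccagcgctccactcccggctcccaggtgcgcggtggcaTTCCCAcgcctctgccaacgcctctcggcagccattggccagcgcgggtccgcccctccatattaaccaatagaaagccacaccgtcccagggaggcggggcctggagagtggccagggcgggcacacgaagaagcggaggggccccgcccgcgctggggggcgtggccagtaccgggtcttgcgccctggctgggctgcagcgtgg
Bmx (chrX:164258194-164258443, - strand): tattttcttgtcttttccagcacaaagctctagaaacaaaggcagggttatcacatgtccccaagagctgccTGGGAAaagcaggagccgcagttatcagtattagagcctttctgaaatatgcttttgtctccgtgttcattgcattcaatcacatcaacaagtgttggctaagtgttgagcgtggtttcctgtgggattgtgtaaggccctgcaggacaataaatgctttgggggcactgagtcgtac
The letters occurred once each in the windows of Bmx and Hey2 and in none of the other 7, and 21.6% of all 32851 RefSeq promoter windows of the same length hold them on either strand. A match in this window is only a match of letters.

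Hes1, a repressor and the most direct readout of Notch in many tissues, was 5.01, 5.71, 5.14 and 5.02 CPM in CAL 1 to 4 and 8.99, 9.32, 6.15 and 6.59 CPM in CAL_Dll4i 1 to 4. The lowest inhibited graft lay just above the highest CAL graft, and CAL_Dll4i 1 and 2 were clearly apart. Its log2 fold change was 0.57 ± 0.16, or 1.49-fold, with adjusted p = 0.659. Nrarp, a Notch target that feeds back on the pathway, was 7.40, 5.05, 5.35 and 4.93 CPM in CAL 1 to 4 and 11.9, 5.76, 7.67 and 8.48 CPM in CAL_Dll4i 1 to 4. CAL 1 and CAL_Dll4i 2 crossed over, so the groups overlapped; the log2 fold change was 0.57 ± 0.20 with adjusted p = 0.659. Control grafts averaged 6.89 ± 1.20 CPM for Hes1 and 8.10 ± 0.748 for Nrarp.

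Efnb2, which encodes the arterial marker ephrin-B2, was 5.23, 6.77, 5.27 and 4.08 CPM in CAL 1 to 4 and 9.42, 9.13, 6.83 and 9.24 CPM in CAL_Dll4i 1 to 4. CAL_Dll4i 3 was the lowest inhibited graft and stood barely above CAL 2, the highest CAL graft. The log2 fold change was 0.70 ± 0.21 with adjusted p = 0.659. Unc5b, a guidance receptor of endothelium, was 11.9, 16.3, 20.9 and 10.2 CPM in CAL 1 to 4 and 24.4, 26.8, 14.5 and 25.7 CPM in CAL_Dll4i 1 to 4, with CAL_Dll4i 3 inside the CAL range and the other inhibited grafts above it. It had 0.62 ± 0.24 on the log2 scale and adjusted p = 0.659. Bmx, a kinase of arterial endothelium, stood at 1.45 ± 0.171 and 2.22 ± 0.385 CPM (0.61 ± 0.21, adjusted p = 0.659) with no overlap. Flt1, a decoy receptor for VEGF that Notch raises, stood at 46.5 ± 11.8 and 60.2 ± 10.8 CPM with 0.37 ± 0.17 and adjusted p = 0.669.

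Hey1 and Hey2, canonical targets of the Hey family, had estimates near 0. Hey1 was 2.17, 1.53, 1.85 and 1.41 CPM in CAL 1 to 4 and 1.83, 1.72, 1.58 and 2.02 CPM in CAL_Dll4i 1 to 4, 0.04 ± 0.20 on the log2 scale with adjusted p = 0.978. Hey2, whose window holds the RBPJ core letters, was 0.895, 0.629, 0.606 and 0.502 CPM in CAL 1 to 4 and 0.739, 0.378, 0.790 and 0.589 CPM in CAL_Dll4i 1 to 4, -0.07 ± 0.33 with adjusted p = 0.975. In both genes the groups overlapped throughout, and the sign of the estimate depended on single libraries. The 15 tested genes of Notch cleavage, glycosylation and transcription had 7 higher and 8 lower estimates with a median of -0.00. Of these Adam17, a protease that can cut Notch receptors at the cell surface, stood at 275 ± 15.5 and 262 ± 13.0 CPM, and the fringe genes Lfng and Mfng had log2 fold changes of -0.14 ± 0.12 and -0.24 ± 0.14, each with an adjusted p of at least 0.738 by edgeR.

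**Figure D2:**
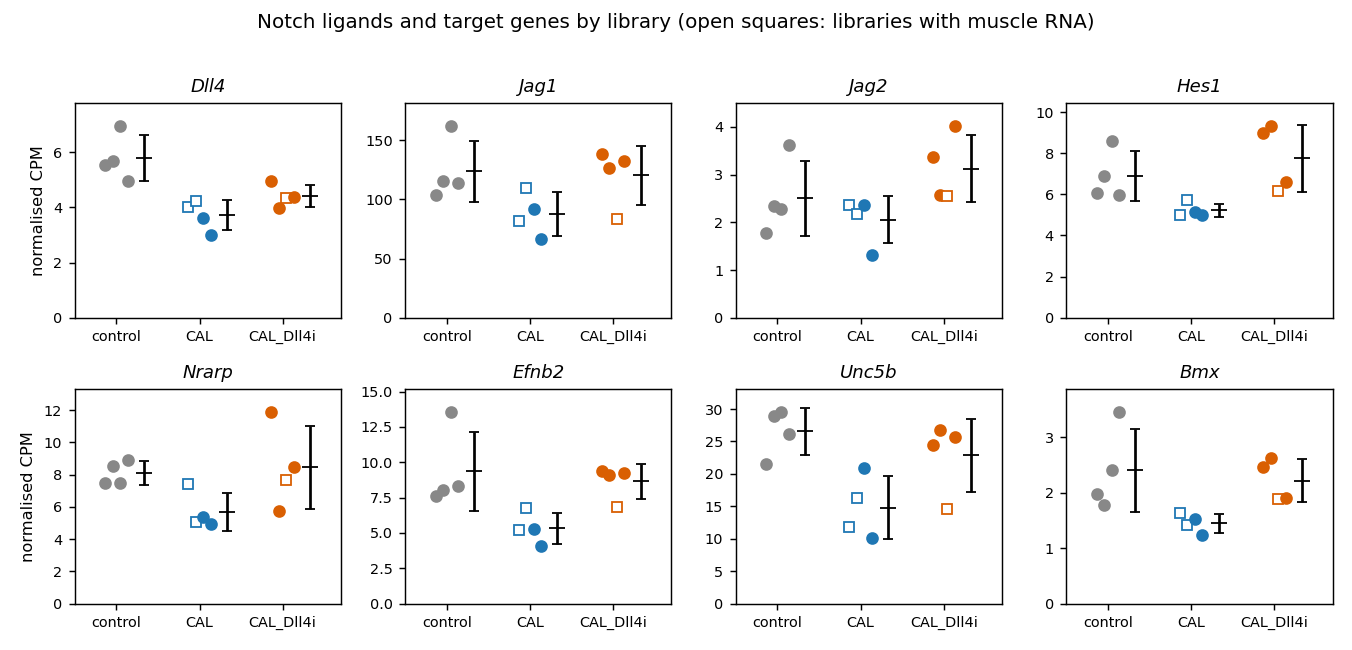
Normalised CPM of Notch ligands (Dll4, Jag1, Jag2) and target genes (Hes1, Nrarp, Efnb2, Unc5b, Bmx) in each library of control, CAL and CAL_Dll4i, with mean and SD (n = 4) beside the points; open squares are the 3 libraries with muscle RNA. For Hes1, Efnb2, Jag2 and Bmx all 4 CAL_Dll4i points lie above all 4 CAL points, and for Hes1, Efnb2, Jag1 and Unc5b CAL_Dll4i 3 is the lowest of its group.

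Vascular genes had mostly small differences. Of 15 VEGF and angiopoietin signalling genes 10 had higher estimates (median 0.05), with 3 at an unadjusted p under 0.05 against 4.47% of all genes. Angpt2, which loosens vessel walls during sprouting, was 11.8, 11.3, 12.5 and 9.81 CPM in CAL 1 to 4 and 15.1, 13.6, 11.9 and 16.9 CPM in CAL_Dll4i 1 to 4. CAL_Dll4i 3 lay among the CAL grafts and the other inhibited grafts above them all; the log2 fold change was 0.34 ± 0.13 with adjusted p = 0.659, and Mcph1 overlaps the gene. Vegfc, a growth factor for lymphatic and blood vessels, stood at 4.09 ± 1.09 and 5.60 ± 0.231 CPM (0.45 ± 0.16, adjusted p = 0.659). Hif1a, the oxygen-regulated transcription factor, stood at 279 ± 36.0 and 321 ± 21.7 CPM (0.20 ± 0.08, adjusted p = 0.659).

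Vegfa, the main driver of sprouting, stood at 18.3 ± 3.60 and 18.9 ± 2.57 CPM, with an estimate of 0.05 ± 0.15 (adjusted p = 0.96) that was smaller than its SE. Its receptor Kdr stood at 71.3, 53.1, 38.0 and 54.8 CPM in CAL 1 to 4 and 53.5, 48.8, 47.4 and 50.6 CPM in CAL_Dll4i 1 to 4, with an estimate of -0.12 ± 0.15 and adjusted p = 0.879. The CAL grafts spanned more than the inhibited grafts for Kdr, with CAL 1 highest and CAL 3 lowest. Tip cell genes, which mark the leading cells of sprouts, had 10 of 12 higher estimates (median 0.24). Of them 2 had an unadjusted p under 0.05, against 4.47% of all genes. These were Angpt2 and Unc5b, already counted in the VEGF and angiopoietin list and the Notch target list. Esm1 was 0.379, 0.359, 1.43 and 0.395 CPM in CAL 1 to 4 and 0.770, 1.43, 0.854 and 2.15 CPM in CAL_Dll4i 1 to 4. CAL 3 stood apart from the other CAL grafts, and the log2 fold change was 1.01 ± 0.50 with adjusted p = 0.688. Apln stood at 1.13 ± 0.626 and 1.31 ± 0.540 CPM (0.22 ± 0.40, adjusted p = 0.926), with CAL 3 the highest of the CAL grafts.

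Of 20 endothelial markers 15 were higher, with a median of 0.10 and 1 at an unadjusted p under 0.05, against 4.47% of all genes. Pecam1 was 144, 116, 88.7 and 103 CPM in CAL 1 to 4 and 139, 107, 126 and 123 CPM in CAL_Dll4i 1 to 4, and Cdh5 stood at 64.9 ± 12.8 and 70.9 ± 7.78 CPM. Both junction genes overlapped between the groups, with estimates of 0.13 ± 0.13 and 0.13 ± 0.12. Ecscr, a regulator of endothelial survival and migration, was 11.96, 17.2, 19.7 and 12.3 CPM in CAL 1 to 4 and 24.4, 21.5, 17.0 and 24.4 CPM in CAL_Dll4i 1 to 4. CAL_Dll4i 3 lay below CAL 2 and CAL 3, and the log2 fold change was 0.51 ± 0.17 with adjusted p = 0.659. The endothelial median became 0.31 without the 3 libraries with muscle RNA and -0.01 without CAL_Dll4i 1.

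Mural cells, the pericytes and smooth muscle cells of the vessel wall, had 10 of 12 marker genes higher (median 0.27). In 2 of them the groups did not overlap, against 1.58% of all genes. The median was 0.16 without CAL 4. Rgs5, a pericyte marker, was 25.3, 20.2, 22.0 and 17.2 CPM in CAL 1 to 4 and 26.8, 29.3, 27.5 and 29.6 CPM in CAL_Dll4i 1 to 4. All inhibited grafts exceeded all CAL grafts, CAL_Dll4i 1 by a small margin, with 0.42 ± 0.17 on the log2 scale and adjusted p = 0.659. Pdgfrb, the receptor by which endothelium recruits pericytes, stood at 184 ± 24.2 and 229.7 ± 31.6 CPM (0.32 ± 0.13, adjusted p = 0.659). Acta2, smooth muscle actin, was 24.6, 33.7, 28.0 and 13.7 CPM in CAL 1 to 4 and 50.6, 35.2, 25.5 and 38.3 CPM in CAL_Dll4i 1 to 4, with CAL 4 lowest and overlap between the groups, and had 0.58 ± 0.29 with adjusted p = 0.688.

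Lymphatic markers were higher in 7 of 7 cases with a median of 0.42, but single libraries carried much of this. The median was 0.03 without CAL 3, 0.00 without CAL_Dll4i 3 and 0.22 without CAL 4. It was 1.19 with voom and 0.93 when the 3 muscle-bearing libraries were left out. Lyve1, a receptor of lymphatic endothelium, was 3.86, 5.46, 0.222 and 3.60 CPM in CAL 1 to 4 and 2.76, 6.22, 7.11 and 5.53 CPM in CAL_Dll4i 1 to 4. Prox1, the transcription factor that defines lymphatic identity, was 5.10, 5.17, 0.0738 and 2.83 CPM in CAL 1 to 4 and 1.96, 3.496, 5.53 and 2.86 CPM in CAL_Dll4i 1 to 4. CAL 3 was nearly without either transcript, while the other CAL grafts lay within the inhibited range. Without CAL 3 the Prox1 estimate was -0.33, against 0.08 ± 0.77 with all libraries. Pdpn, also made by stromal cells, was the 1 lymphatic marker at an unadjusted p under 0.05 (68.4 ± 20.8 and 106 ± 20.4 CPM, 0.64 ± 0.23, adjusted p = 0.659). At that level 4.47% of all genes were higher.

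Adipocyte genes had lower estimates with the inhibition. Of 20 markers 19 were lower (list median -0.57), and in 7 every inhibited graft lay below every CAL graft, against 1.76% of all genes. At an unadjusted p under 0.05, 2 were lower, against 2.95% of all genes, and 1 (Cd36) was higher, against 4.47%. The list median was -0.41 without CAL 4. The list mean of log2(CPM + 1) was 6.40 ± 0.29 in CAL and 5.87 ± 0.31 in CAL_Dll4i (SD over 4 libraries). Lipe, the hormone-sensitive lipase, was 183, 137, 136 and 234 CPM in CAL 1 to 4 and 105, 123, 125 and 84.3 CPM in CAL_Dll4i 1 to 4. The groups were fully apart and CAL 4 was far the highest; the estimate was -0.66 ± 0.29 with adjusted p = 0.669. Pparg, the master regulator of fat cell differentiation, was 89.4, 76.2, 70.8 and 112 CPM in CAL 1 to 4 and 55.4, 67.2, 73.7 and 55.6 CPM in CAL_Dll4i 1 to 4. CAL_Dll4i 3 lay just above CAL 3 and the other inhibited grafts lay below all of CAL, with -0.47 ± 0.19 and adjusted p = 0.659.

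The hormone genes varied more. Adipoq, which encodes adiponectin, was 138, 109, 116 and 172 CPM in CAL 1 to 4 and 73.7, 112, 114 and 80.5 CPM in CAL_Dll4i 1 to 4, -0.49 ± 0.31 on the log2 scale with adjusted p = 0.765. CAL_Dll4i 2 and 3 lay within the lower CAL range and CAL_Dll4i 1 and 4 below it. Lep, leptin, was 16.5, 15.0, 14.6 and 31.8 CPM in CAL 1 to 4 and 4.72, 14.2, 11.7 and 7.09 CPM in CAL_Dll4i 1 to 4, with all inhibited grafts below all CAL grafts and CAL 4 well above the other CAL grafts (-1.05 ± 0.55, adjusted p = 0.7). Plin1, a coat protein of lipid droplets, stood at 61.1 ± 17.5 and 35.01 ± 6.32 CPM with no overlap (-0.80 ± 0.39, adjusted p = 0.687). Cd36, a fatty acid transporter that macrophages and endothelium also make, was the 1 marker with a higher estimate (1104 ± 72.7 and 1231 ± 82.0 CPM, 0.16 ± 0.07, adjusted p = 0.665). Control grafts averaged 75.5 ± 34.5 CPM for Adipoq and 6.78 ± 4.65 for Lep, below CAL.

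Lipogenesis genes were lower in 19 of 19 cases, 6 at an unadjusted p under 0.05 against 2.95% of all genes, with a median of -0.33. Fasn, fatty acid synthase, was 327, 285, 367 and 435 CPM in CAL 1 to 4 and 114, 264, 329 and 158 CPM in CAL_Dll4i 1 to 4, with CAL_Dll4i 3 inside the CAL range, an estimate of -0.71 ± 0.38 and adjusted p = 0.711. Acaca, which makes the malonyl-CoA that Fasn uses, was 346, 314, 335 and 397 CPM in CAL 1 to 4 and 249, 294, 316 and 251 CPM in CAL_Dll4i 1 to 4. Only CAL_Dll4i 3 entered the CAL range, and the estimate was -0.33 ± 0.12 with adjusted p = 0.659. Lpin1, an enzyme of triglyceride synthesis, stood at 125 ± 20.9 and 95.4 ± 10.2 CPM with no overlap (-0.39 ± 0.12, adjusted p = 0.659), and Srebf1, a transcription factor of lipid synthesis, at 91.0 ± 14.2 and 69.3 ± 8.21 CPM, also with no overlap (-0.39 ± 0.15, adjusted p = 0.659).

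CAL_Dll4i 1 and 4, with the highest keratinocyte sums, had the lowest adipocyte list means (5.64 and 5.57). The adipocyte list mean was 6.11 in CAL_Dll4i 2 and 6.16 in CAL_Dll4i 3, whose keratinocyte sums were 184 and 13.0 CPM. It was 6.19 in CAL 3 and 6.16 in CAL 2, with 90.6 and 13.7 CPM. With the muscle and keratinocyte list scores as covariates, the adipocyte median was -0.06 and the lipogenesis median -0.09. Without the 3 libraries with muscle RNA they were -0.75 and -0.47. The keratinocyte list mean itself differed between the groups (1.65 ± 0.86 in CAL and 3.37 ± 1.67 in CAL_Dll4i, SD over 4 libraries). The covariate fit thus cannot tell keratinocyte RNA apart from the treatment. Cholesterol synthesis genes, part of a different pathway, were lower in 16 of 20 cases with a median of -0.08 and 0 at an unadjusted p under 0.05 by edgeR.

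Mitochondrial genes split by genome. All 13 protein genes encoded in mitochondrial DNA had higher estimates in CAL_Dll4i, from 0.09 to 0.30 with a median of 0.17, and 10 of 13 had an unadjusted p under 0.05, against 4.47% of all genes. These transcripts are cut from shared precursors and are not independent of each other. COX1, the core subunit of cytochrome oxidase, was 1147, 1247, 1199 and 1062 CPM in CAL 1 to 4 and 1308, 1271, 1349.6 and 1487 CPM in CAL_Dll4i 1 to 4. All inhibited grafts lay above all CAL grafts, by a margin small against the range within each group; the estimate was 0.22 ± 0.06 with adjusted p = 0.659. ND1, a subunit of complex I, was 507, 541, 517 and 469 CPM in CAL 1 to 4 and 556, 556, 589.8 and 625 CPM in CAL_Dll4i 1 to 4, again with no overlap (0.19 ± 0.05, adjusted p = 0.659). ATP6 and ND4, which share sequence with neighbouring mitochondrial genes, had 0.21 ± 0.07 and 0.18 ± 0.06.

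Nuclear genes of oxidative phosphorylation had lower estimates in 18 of 19 cases, with a median of -0.09, 4 at an unadjusted p under 0.05 against 2.95% of all genes, and 4 without overlap between the groups against 1.76%. Atp5a1, the alpha subunit of ATP synthase, was 374, 356, 338 and 332 CPM in CAL 1 to 4 and 329, 323, 329 and 315 CPM in CAL_Dll4i 1 to 4. The highest inhibited graft lay just below the lowest CAL graft, and the estimate was -0.11 ± 0.05 with adjusted p = 0.659. Ndufv1 of complex I was 61.3, 65.2, 58.0 and 63.0 CPM in CAL 1 to 4 and 54.8, 57.9, 55.6 and 53.0 CPM in CAL_Dll4i 1 to 4, with CAL_Dll4i 2 and CAL 3 close together (-0.16 ± 0.06, adjusted p = 0.659). The difference amounted to 1.08-fold lower for Atp5a1 and 1.16-fold higher for COX1.

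Fatty acid oxidation genes were lower in 16 of 18 cases (median -0.08), 3 at an unadjusted p under 0.05 against 2.95% of all genes, and 3 without overlap between the groups against 1.76%. The median was -0.04 without CAL 4, -0.14 without CAL 2 and -0.01 with the muscle and keratinocyte covariates. Acadm, the medium-chain dehydrogenase, was 186, 175, 147 and 192 CPM in CAL 1 to 4 and 132, 164, 145 and 140.3 CPM in CAL_Dll4i 1 to 4, with CAL_Dll4i 2 above CAL 3 (-0.27 ± 0.11, adjusted p = 0.659). Etfb, which passes electrons from these dehydrogenases to the respiratory chain, stood at 35.6 ± 2.26 and 30.1 ± 2.43 CPM with no overlap (-0.24 ± 0.09, adjusted p = 0.659). The signs of the mitochondrial-encoded, nuclear and fatty acid oxidation medians were the same in each of the 20 other settings run.

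**Figure D3:**
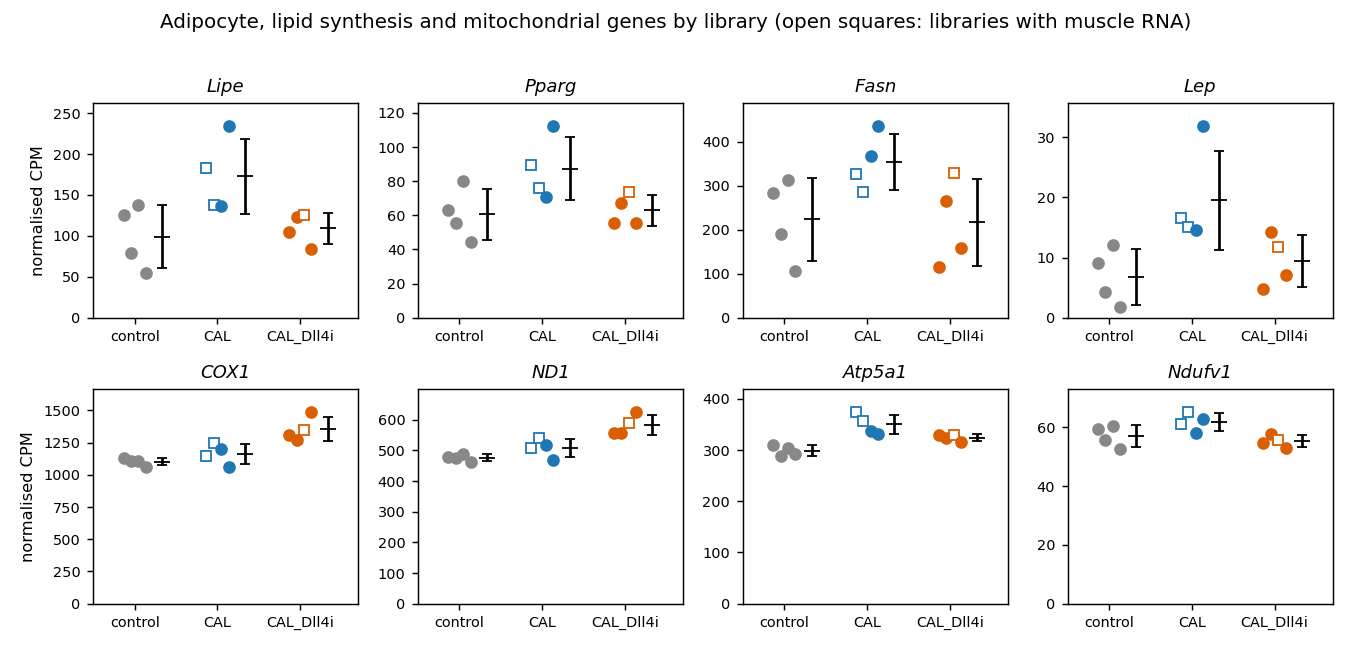
Normalised CPM of adipocyte genes (Lipe, Pparg, Lep), a lipid synthesis gene (Fasn), mitochondrial-encoded genes (COX1, ND1) and nuclear genes of oxidative phosphorylation (Atp5a1, Ndufv1) by library, with mean and SD (n = 4); open squares are the 3 libraries with muscle RNA. COX1 and ND1 are higher in all 4 CAL_Dll4i libraries than in all 4 CAL libraries, while Atp5a1, Ndufv1, Lipe and Lep are lower in all 4.

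Matrix genes had higher estimates. Of 24 genes for fibrillar and related collagens and their assembly 23 were higher (median 0.27). An unadjusted p under 0.05 was found for 11, against 4.47% of all genes. The groups were apart for 1 gene of the list, Plod2, against 1.58% of all genes. Plod2, which hydroxylates collagen so that it can be cross-linked, was 29.7, 39.0, 39.5 and 32.8 CPM in CAL 1 to 4 and 51.3, 46.6, 43.8 and 50.6 CPM in CAL_Dll4i 1 to 4 (0.45 ± 0.14, adjusted p = 0.659). Col5a3 stood at 190.4 ± 23.5 and 257 ± 40.8 CPM, Col5a2 at 579 ± 62.2 and 731 ± 90.9 and Col6a1 at 479 ± 41.2 and 581 ± 47.8, with log2 fold changes of 0.43 ± 0.15, 0.34 ± 0.11 and 0.28 ± 0.09. Col1a1, the main fibrillar collagen, was 2035, 2125, 1834 and 1414 CPM in CAL 1 to 4 and 2106, 2224, 2106 and 2085 CPM in CAL_Dll4i 1 to 4, with CAL 4 low and CAL 2 inside the inhibited range (0.20 ± 0.11, adjusted p = 0.708).

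Basement membrane genes, the sheet under endothelium and around fat cells, were higher in 13 of 15 cases (median 0.17). An unadjusted p under 0.05 was found for 3, against 4.47% of all genes. Col18a1, the precursor of endostatin, was 118, 133, 124 and 114 CPM in CAL 1 to 4 and 199.6, 216, 122 and 202 CPM in CAL_Dll4i 1 to 4. CAL_Dll4i 1, 2 and 4 were well above CAL, and CAL_Dll4i 3 was within it (0.60 ± 0.19, adjusted p = 0.659). Col4a1 and Col4a2, whose genes overlap head to head, stood at 487 ± 49.4 and 637 ± 90.6 and 328 ± 42.1 and 418 ± 63.9 CPM with 0.39 ± 0.14 and 0.35 ± 0.14. Elastic fibre and glycoprotein genes were higher in 19 of 23 cases (median 0.22). Of them 7 had an unadjusted p under 0.05, against 4.47% of all genes. Fbn1, fibrillin, stood at 945 ± 110.5 and 1163 ± 120.1 CPM (0.30 ± 0.10, adjusted p = 0.659) and Fn1, fibronectin, was 1436, 1859, 1918 and 1459 CPM in CAL 1 to 4 and 2064, 2077, 1662 and 2061 CPM in CAL_Dll4i 1 to 4. CAL_Dll4i 3 lay inside the CAL range for Fn1 and the other inhibited grafts above it (0.24 ± 0.11, adjusted p = 0.68).

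Stromal cell markers as a list had a median of 0.07, with 9 higher and 5 lower. Pdgfra, the marker of adipose fibroblasts and progenitors, was 185, 235, 204 and 216 CPM in CAL 1 to 4 and 230.3, 278, 219 and 254 CPM in CAL_Dll4i 1 to 4 (0.23 ± 0.09, adjusted p = 0.659), and the groups overlapped. Thy1 stood at 58.0 ± 11.8 and 79.6 ± 11.9 CPM (0.46 ± 0.16, adjusted p = 0.659) and Icam1 at 40.4 ± 5.10 and 34.9 ± 5.71 CPM (-0.21 ± 0.14, adjusted p = 0.765). The fibrillar collagen median was 0.36 and the stromal median -0.03 without the 3 libraries with muscle RNA.

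**Figure D4:**
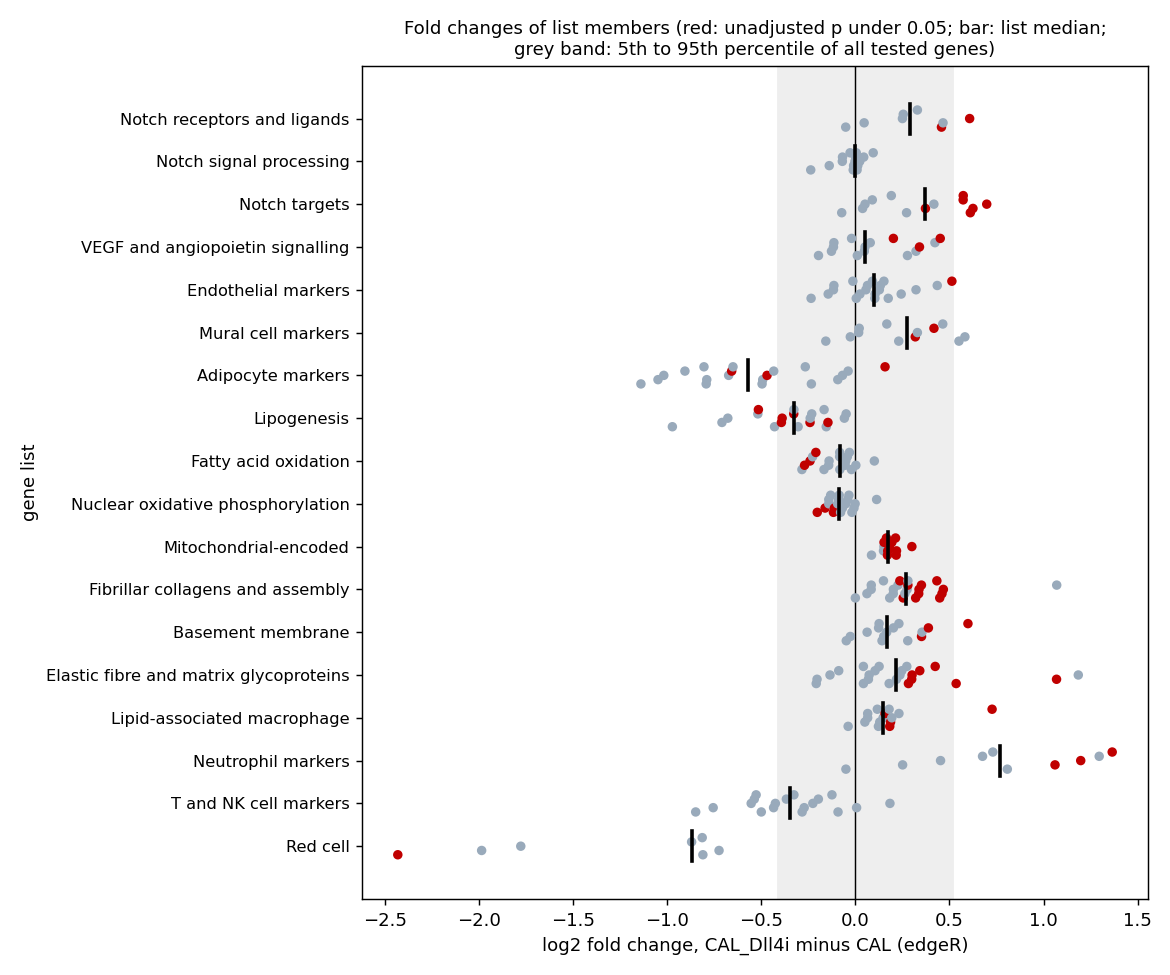
Log2 fold change (CAL_Dll4i minus CAL, edgeR) of each tested member of 18 gene lists; each point is a gene, red where its unadjusted p is under 0.05, the black bar is the list median and the grey band runs from the 5th to the 95th percentile of all tested genes. The 13 mitochondrial-encoded genes lie between 0.09 and 0.30, lipogenesis genes lie below 0, and Notch target genes lie between -0.07 and 0.70.

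Macrophage genes had no common direction, with 9 of 16 higher and a median of 0.02. Adgre1, which encodes the macrophage antigen F4/80, was 533, 485, 598 and 612 CPM in CAL 1 to 4 and 441, 486, 492 and 521 CPM in CAL_Dll4i 1 to 4. CAL_Dll4i 2, 3 and 4 lay above CAL 2 and below the other CAL grafts, and the estimate was -0.20 ± 0.07 with adjusted p = 0.659. Mrc1, a marker of resident macrophages, stood at 666 ± 28.2 and 674 ± 27.8 CPM (0.02 ± 0.07, adjusted p = 0.971). Genes of lipid-associated macrophages, which form around dying fat cells, were higher in 14 of 15 cases (median 0.15). Of them 4 had an unadjusted p under 0.05, against 4.47% of all genes. Spp1, osteopontin, was 469, 629, 669 and 352 CPM in CAL 1 to 4 and 784, 924, 785 and 1013 CPM in CAL_Dll4i 1 to 4. The groups were apart, with CAL 4 lowest and CAL_Dll4i 4 highest; the estimate was 0.73 ± 0.23, or 1.65-fold, with adjusted p = 0.659. Gpnmb and Ctsb had 0.18 ± 0.08 and 0.19 ± 0.08.

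Neutrophil markers had the largest median of the immune lists given here, higher in 9 of 10 cases with a median of 0.77, 3 at an unadjusted p under 0.05 against 4.47% of all genes, and all 3 without overlap between the groups against 1.58%. S100a9, a subunit of calprotectin, was 12.4, 16.8, 28.2 and 7.80 CPM in CAL 1 to 4 and 40.2, 33.7, 40.9 and 53.0 CPM in CAL_Dll4i 1 to 4. CAL 3 was the highest CAL graft and still below all inhibited grafts, with 1.36 ± 0.48 and adjusted p = 0.659. S100a8, the other subunit, stood at 13.3 ± 6.46 and 27.7 ± 4.18 CPM (1.06 ± 0.38, adjusted p = 0.659), and Cxcr2, the receptor that guides neutrophils, was 8.33, 17.3, 14.8 and 5.02 CPM in CAL 1 to 4 and 29.3, 25.8, 22.1 and 27.1 CPM in CAL_Dll4i 1 to 4 (1.20 ± 0.40, adjusted p = 0.659). Keratinocytes can also make S100a8 and S100a9, and their part in these levels was not tested. With the muscle and keratinocyte covariates the neutrophil median was 0.28.

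Inflammatory mediators were higher in 14 of 20 cases with a median of 0.11, which was 0.01 without CAL 1, 0.01 without CAL_Dll4i 1, 0.27 without CAL 3 and 0.02 without the 3 libraries with muscle RNA. Il6 was 0.585, 0.844, 0.930 and 0.623 CPM in CAL 1 to 4 and 7.70, 2.39, 1.17 and 2.18 CPM in CAL_Dll4i 1 to 4, without overlap but with CAL_Dll4i 1 far above the rest (2.17 ± 0.87, adjusted p = 0.659). Il1b was 30.5, 47.4, 60.2 and 18.4 CPM in CAL 1 to 4 and 126, 56.1, 56.5 and 63.2 CPM in CAL_Dll4i 1 to 4, also highest in CAL_Dll4i 1 (0.95 ± 0.39, adjusted p = 0.659). Il10, an anti-inflammatory cytokine, stood at 1.74 ± 0.585 and 1.13 ± 0.236 CPM (-0.62 ± 0.28, adjusted p = 0.669).

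Estimates for lymphocyte genes were mixed. T and NK cell markers were lower in 16 of 18 cases (median -0.35), with 0 at an unadjusted p under 0.05 by edgeR. Gzma, a granzyme of cytotoxic cells, was 5.35, 4.72, 5.86 and 8.33 CPM in CAL 1 to 4 and 3.89, 4.19, 4.41 and 4.24 CPM in CAL_Dll4i 1 to 4, without overlap (-0.54 ± 0.25, adjusted p = 0.674), and Gzmb stood at 7.91 ± 3.88 and 4.39 ± 1.57 CPM (-0.85 ± 0.47, adjusted p = 0.716). The list median was -0.71 without the 3 libraries with muscle RNA, -0.17 without CAL_Dll4i 2 and -0.54 without CAL_Dll4i 3. B and plasma cell markers had a median of 0.18 whose sign depended on the setting. Mast cell and eosinophil markers were lower in 9 of 11 cases (median -0.39, but -0.20 without CAL 4 and -0.86 without CAL_Dll4i 1). At an unadjusted p under 0.05 by edgeR, however, 1 marker was higher and 0 were lower, against 4.47% and 2.95% of all genes. Prg2, the eosinophil major basic protein, was 6.66, 6.90, 6.60 and 6.68 CPM in CAL 1 to 4 and 4.00, 1.67, 5.85 and 3.47 CPM in CAL_Dll4i 1 to 4, without overlap (-0.84 ± 0.42, adjusted p = 0.688).

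Interferon response genes were lower in 18 of 18 cases with a median of -0.45, which rested on CAL 4. Oasl1 was 6.94, 4.83, 3.40 and 28.5 CPM in CAL 1 to 4 and 7.18, 3.98, 4.25 and 8.15 CPM in CAL_Dll4i 1 to 4, and without CAL 4 its estimate was 0.22 and the list median 0.20. Hypoxia and glycolysis genes (14 of 20 higher, median 0.05), immediate early genes (14 of 16 higher, median 0.11) and proliferation genes (18 of 19 lower, median -0.08) had 0, 1 and 0 genes at an unadjusted p under 0.05 by edgeR. At that level 4.47% of all genes were higher and 2.95% lower. Red cell genes were lower in 7 of 7 cases (median -0.87). Their summed level was 776, 907, 260 and 866 CPM in CAL 1 to 4 and 335, 350, 533 and 376 CPM in CAL_Dll4i 1 to 4, so that CAL 3 lay below the inhibited grafts.

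Single genes with the smallest p-values were named only among genes whose groups did not overlap (1.58% of all genes higher, 1.76% lower). Their separation was therefore set by the choice. They were mostly not members of these lists. Vsig8, an immunoglobulin-domain protein of the cell surface, was 29.6, 29.7, 24.9 and 26.9 CPM in CAL 1 to 4 and 17.3, 18.3, 20.1 and 16.1 CPM in CAL_Dll4i 1 to 4. The groups were well apart, each with a narrow range. Its estimate was -0.63 ± 0.10, or 1.55-fold lower, with adjusted p = 0.659 by edgeR. It was the 1 gene that DESeq2 called (adjusted p = 3.56e-05), and voom did not call it. On simulated counts DESeq2 made 48 false calls, against 4 each for edgeR and voom. The gene sits on chromosome 1 at 172555938 to 172563717 (Vsig8, GRCm38.p6). Control grafts averaged 14.0 ± 1.61 CPM, so that the mean of the inhibited grafts lay between those of control and CAL.

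Slc16a10, a transporter of aromatic amino acids, was 71.4, 72.4, 69.4 and 74.0 CPM in CAL 1 to 4 and 58.5, 56.9, 59.0 and 57.0 CPM in CAL_Dll4i 1 to 4, with narrow ranges that did not meet (-0.31 ± 0.07, adjusted p = 0.659). Pltp, a phospholipid transfer protein made by macrophages among other cells, was 294, 278, 311 and 380.1 CPM in CAL 1 to 4 and 241, 240.3, 258 and 219.9 CPM in CAL_Dll4i 1 to 4, lowest in CAL_Dll4i 4 and highest in CAL 4 (-0.40 ± 0.09, adjusted p = 0.659). Axl, a receptor by which macrophages take up dead cells, was 337, 275, 324 and 344 CPM in CAL 1 to 4 and 246, 239, 266 and 263 CPM in CAL_Dll4i 1 to 4 (-0.34 ± 0.07, adjusted p = 0.659). Ear2, an RNase of eosinophils and macrophages with near-identical relatives in its family, was 142, 135, 149 and 189.9 CPM in CAL 1 to 4 and 80.7, 93.7, 107 and 105 CPM in CAL_Dll4i 1 to 4 (-0.67 ± 0.15, adjusted p = 0.659); reads shared with those relatives make its level uncertain. For Axl and Ear2 too, every inhibited graft lay below every CAL graft, and CAL 4 was the highest of all 8 libraries.

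Other lower genes named by their p were Tbxas1, thromboxane synthase, at 151 ± 8.16 and 131 ± 4.23 CPM (-0.20 ± 0.05), Trim36 at 32.7 ± 3.77 and 23.4 ± 1.72 (-0.49 ± 0.11), and Negr1, a neuronal adhesion protein, at 8.33 ± 3.47 and 3.39 ± 0.414 (-1.30 ± 0.31). Myh15, a myosin heavy chain, was 5.39, 7.72, 5.18 and 11.3 CPM in CAL 1 to 4 and 2.04, 3.51, 4.43 and 1.81 CPM in CAL_Dll4i 1 to 4, -1.33 ± 0.32 on the log2 scale. CAL 4 was again the highest library and the groups did not meet. Mettl7b stood at 0.399 ± 0.118 and 0.112 ± 0.0484 CPM, a level near the filter on low counts.

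Among the higher genes, Phldb2, which anchors microtubules at the cell edge, was 48.6, 48.2, 48.3 and 42.2 CPM in CAL 1 to 4 and 55.6, 57.2, 61.7 and 57.5 CPM in CAL_Dll4i 1 to 4. CAL 4 was the lowest of a close CAL group, and the estimate was 0.31 ± 0.07 with adjusted p = 0.659. Ugcg, which makes glucosylceramide, was 158, 166, 161 and 132 CPM in CAL 1 to 4 and 187, 187, 183 and 192 CPM in CAL_Dll4i 1 to 4, with the inhibited grafts within a narrow band (0.28 ± 0.07, adjusted p = 0.659). Il13ra2, a decoy receptor for interleukin 13, was 0.671, 0.790, 0.502 and 0.623 CPM in CAL 1 to 4 and 1.84, 1.59, 1.98 and 1.30 CPM in CAL_Dll4i 1 to 4 (1.37 ± 0.33, adjusted p = 0.659), 2.59-fold higher and without overlap. Gper1, a membrane receptor for oestrogen, was 0.413, 0.198, 0.546 and 0.380 CPM in CAL 1 to 4 and 0.905, 0.583, 0.933 and 1.07 CPM in CAL_Dll4i 1 to 4 (1.17 ± 0.29, adjusted p = 0.659). The others in this set, Mospd4, Lrrc75b, Gm8174, Ugt1a2, Lypd6b and Igsf11, had log2 fold changes of 1.65, 1.15, 1.41, 0.36, 1.36 and 1.03. Ugt1a2 shares exons with its neighbours in the Ugt1a cluster, which leaves its counts uncertain.

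**Figure D5:**
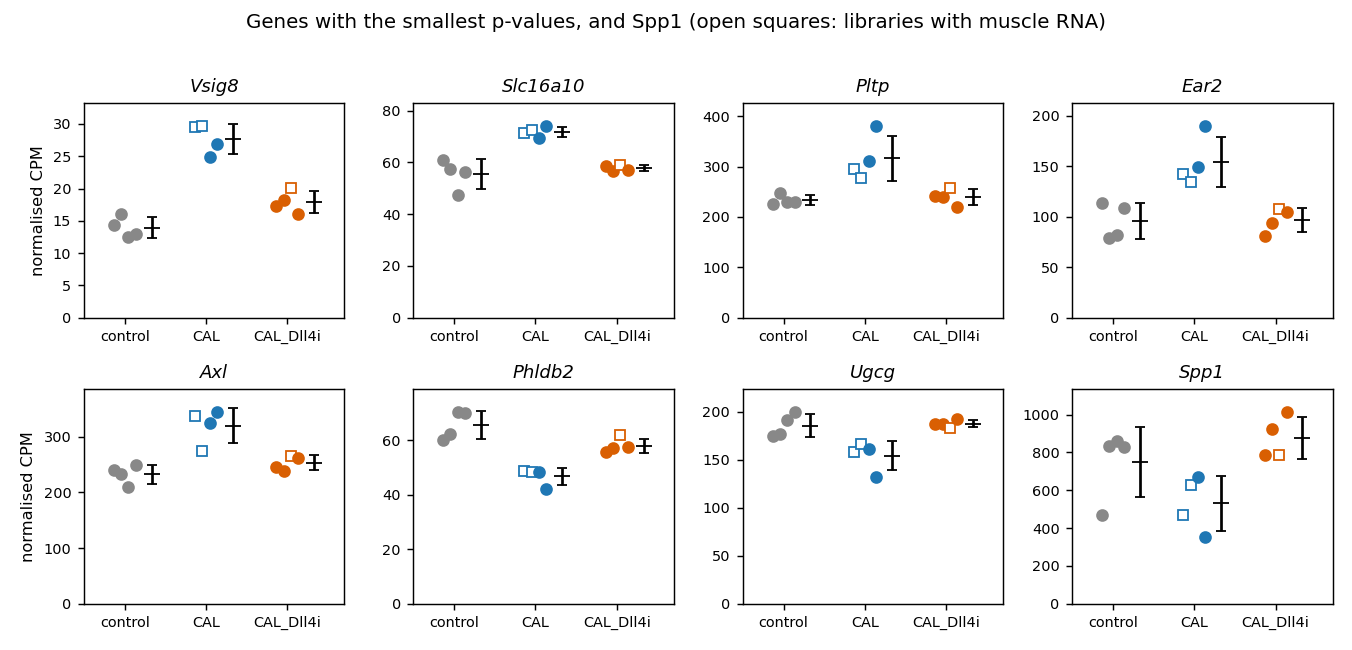
Normalised CPM by library of 5 genes with the smallest p-values among lower genes (Vsig8, Slc16a10, Pltp, Ear2, Axl), 2 among higher genes (Phldb2, Ugcg) and Spp1, with mean and SD (n = 4); open squares are the 3 libraries with muscle RNA. In each panel all 4 CAL_Dll4i points lie on one side of all 4 CAL points. All but Spp1 were chosen among genes without overlap between the groups, so their separation was set by the choice. For Vsig8 the means are 27.7 CPM in CAL and 17.9 CPM in CAL_Dll4i.

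The largest fold changes among well-measured genes belonged to skin and antibody genes. Among genes with a mean of at least 5 CPM and an unadjusted p under 0.05, the 5 largest higher estimates were those of the desmosome genes Dsg1b (4.00) and Dsc3 (3.83), the cystatin Cst6 (2.89), the antibody segment Ighv7-3 (2.68) and the skin gene Dmkn (2.62). Dsg1b was 0.189, 0.287, 2.72 and 0.411 CPM in CAL 1 to 4 and 49.5, 4.36, 0.285 and 4.42 CPM in CAL_Dll4i 1 to 4, which placed CAL_Dll4i 3 at the CAL level. Krt14, a keratin of basal keratinocytes, was 0.534, 1.58, 24.1 and 0.760 CPM in CAL 1 to 4 and 167, 61.9, 0.285 and 79.3 CPM in CAL_Dll4i 1 to 4 and followed the same libraries, with CAL 3 the 1 CAL graft well above background. These are markers of skin, and what they contribute to the other differences was not tested. The covariate fits above cannot tell keratinocyte RNA apart from the treatment, because it differed between the groups.

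Of the 5 largest lower estimates 4 were immunoglobulin heavy chain variable segments, whose levels follow which plasma cell clones a graft holds, and the fifth was Rbp4. Ighv1-47 was 9.98, 99.4, 0.281 and 13.9 CPM in CAL 1 to 4 and 1.45, 0.756, 0.648 and 3.90 CPM in CAL_Dll4i 1 to 4, carried by CAL 2. Ighv1-85 was 65.1, 55.6, 1.11 and 64.7 CPM in CAL 1 to 4 and 5.72, 21.3, 5.28 and 5.56 CPM in CAL_Dll4i 1 to 4, low in CAL 3 as in the inhibited grafts. Variable segments are near-identical to one another, so their separate counts are uncertain. Rbp4, the retinol carrier that fat cells secrete, was 15.7, 17.9, 16.2 and 26.5 CPM in CAL 1 to 4 and 2.85, 10.1, 13.1 and 3.25 CPM in CAL_Dll4i 1 to 4. Every inhibited graft lay below every CAL graft, and the estimate was -1.38 ± 0.60 with adjusted p = 0.669.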

How the data were processed

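RNA of mouse fat grafts (12 libraries, 4 a group) was extracted with Trizol and made into libraries with a SureSelectXT RNA Direct kit, which captures exonic sequence, per the labels' protocols. HISAT2, StringTie and the mouse build mm10 are named in the submitters' processing notes, without versions or roles. The authors deposited estimated counts, FPKM and TPM for 19547 genes. The deposited estimated counts are whole numbers, not scaled between libraries, so rounding changed 0 of them. The smallest is 1, so every gene in the deposited counts has a count above 0 in every library. The FPKM values deposited beside them were not used in tests, and the deposited TPM values only to compare levels between genes. Whether counting used strand was not stated, so genes that overlap another are uncertain.

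The primary test used edgeR 4.0.16 in R 4.3.3 (TMM scaling, filterByExpr at its defaults, robust quasi-likelihood fit of all 12 libraries with 1 coefficient per group). A gene counted as called below an adjusted p of 0.05 (Benjamini-Hochberg), and every adjusted p in the text comes from this test over 18551 genes unless another tool is named. The biological coefficient of variation was 0.237. Total counts of 55883051 to 70804141 per library put the limit on precision at the spread between libraries rather than at counting error, except for genes under about 0.319 CPM, where the counting error of the smallest library reaches the biological variation (1282 genes). DESeq2 1.42.0 and voom with sample weights in limma 3.58.1 were alternatives, beside other scalings and filters, covariates, the replicate number as a block and libraries left out. Of 36 gene lists (531 genes), each is given by counts and medians with no test. Some genes are members of several lists, so the lists are not independent of each other. The members and lists were chosen with earlier results of these data known. Named genes are, per direction, the 10 smallest p-values without overlap between the groups, the 5 largest fold changes at a mean of at least 5 CPM and an unadjusted p under 0.05, up to 4 genes of each list by p, and a set of Notch, vessel, fat and neighbouring tissue genes. The result for 1 further gene is not reported here. Positions and promoters come from RefSeq tables of GRCm38.p6, in which 18509 genes had a match. The code was tested on simulated counts, in which edgeR made 4 false calls and DESeq2 48. Plots used matplotlib 3.10.9 in Python 3.11.15.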

Additional observations from a re-analysis of the deposited data

Results flagged for a closer look

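Of 178 sets of 4 libraries examined (72 of list levels and 106 of named genes), 17 had 1 library farther from the rest than Dixon's 95% critical value for 4 samples allows, and chance gives about 1 in 20. List levels are mean log2(CPM + 1) and gene levels are CPM. No explanation was tested.

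CAL 4 was low for Notch targets (2.49, against 2.75 to 2.79 in the other CAL grafts) and for Phldb2 (42.2, against 48.2 to 48.7). It was high for fatty acid oxidation (6.03, against 5.84 to 5.87) and for the hormone gene Lep (31.8, against 14.6 to 16.5). CAL 3 was low for red cell genes (3.78, against 5.33 to 5.64). It was high for Esm1 (1.43, against 0.359 to 0.395), Krt14 (24.1, against 0.534 to 1.58) and Krt5 (25.9, against 0.715 to 2.29). CAL 2 was high for basement membrane genes (7.29, against 7.20 to 7.21) and CAL 1 for Nrarp (7.40, against 4.93 to 5.35).

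Among inhibited grafts, CAL_Dll4i 3 was high for the skeletal muscle list (6.36, against 1.30 to 1.86) and for Acta1 (126.6, against 1.67 to 2.91), skeletal muscle actin. It was low for Efnb2 (6.83, against 9.13 to 9.42) and Fn1 (1662, against 2061 to 2077). CAL_Dll4i 1 was high for inflammatory mediators (4.84, against 3.97 to 4.11) and Igsf11 (1.36, against 0.721 to 0.791). CAL_Dll4i 2 was high for Col1a1 (2224, against 2085 to 2106).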

How the results depend on the processing

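Each result was recomputed under up to 20 other settings. edgeR called 0 genes in each of them, voom with sample weights called 0, and DESeq2 called 1 (Vsig8, log2 fold change -0.63). Dll4 kept its sign and stayed uncalled in all 20. With the control libraries left out of the fit, 751 genes were higher and 686 lower at an unadjusted p under 0.05 by edgeR. Deviations of same-numbered libraries from their group means had r = -0.02, -0.00, -0.40 and -0.08. Muscle and keratinocyte RNA also differed between these libraries, so the values cannot decide whether the numbers pair them. With the replicate block 0 genes were called, 800 were higher and 464 lower at an unadjusted p under 0.05, the Dll4 estimate was 0.26 and the mesothelial median -0.58. At an unadjusted p under 0.05, voom with sample weights had 915 lower genes, the muscle and keratinocyte covariates (chosen after seeing the data) 294 higher and 153 lower, and the fit without the 3 libraries with muscle RNA 857 lower. In that fit 2853 genes were higher and 2949 lower without overlap, in fewer libraries. Leaving out 1 library gave 450 to 1165 higher genes and 260 to 793 lower at an unadjusted p under 0.05, fewest without CAL 4. It gave 373 to 1058 higher and 414 to 953 lower without overlap.

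List medians moved by more than the SD between libraries as follows. With both covariates they were 0.22 for Notch targets, 0.15 for VEGF and angiopoietin signalling, 0.063 for tip cell genes, -0.060 for adipocyte markers, -0.091 for lipogenesis, -0.052 for nuclear oxidative phosphorylation, 0.16 for stromal markers, 0.28 for neutrophil markers, 0.12 for keratinocyte, -1.04 for mammary, -0.038 for red cell and -0.90 for mesothelial genes. Without the 3 libraries they were 0.60 for Notch receptors and ligands, 0.13 for VEGF and angiopoietin signalling, 0.31 for endothelial, 0.43 for mural, -0.20 for fatty acid oxidation, 0.32 for basement membrane, -0.028 for stromal and -0.71 for T and NK genes. Over the fits with 1 library left out, the medians ran from 0.0023 to 0.19 for VEGF and angiopoietin signalling, 0.15 to 0.40 for tip cell genes, 1.83 to 4.38 for keratinocyte genes, 0.22 to 0.45 for Notch targets, -0.72 to 0.20 for interferon response, -0.86 to -0.20 for mast cell and eosinophil markers, -3.51 to 1.37 for skeletal muscle genes, -0.17 to 1.47 for mammary and other epithelium and -0.59 to 0.21 for mesothelial genes. The causes were not tested.

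Of 163 named genes, 13 had an estimate of the opposite sign in some setting. Acta1 stood at -0.76 with voom, -0.58 with the block and -0.096 with the muscle covariate. With both covariates Adipoq stood at 0.033, Krt5 at -0.77 and Vegfa at -0.076. Without the 3 libraries Hey2 stood at 0.040, Kdr at 0.14 and Mrc1 at -0.0075. Over the fits with 1 library left out, the estimates ran from -0.20 to 0.11 for Hey2, -0.25 to 0.042 for Kdr, -0.049 to 0.16 for Hey1, -0.0085 to 0.040 for Mrc1, -0.037 to 0.19 for Vegfa, -3.59 to 1.73 for Acta1, -0.33 to 0.38 for Prox1, -0.045 to 0.53 for Reln, -0.079 to 0.65 for Apln, -0.011 to 0.097 for Notch1 and -1.19 to 0.22 for Oasl1. Counting error reached the biological coefficient of variation in the smallest library at 0.319 CPM, and 1282 of 18551 tested genes had a mean below that.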
